A study of Homo sapiens with 12 samples.

Results

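The genes described here fold, oxidize and inspect secretory proteins inside the endoplasmic reticulum (ER), or sense when that work falls behind. The list holds 38 genes by name: 17 chaperones and their cofactors, 10 disulfide enzymes, 5 stress sensors and 6 genes of disposal and translocation. A gene was analysed if at least 1 Affymetrix probe set named it alone, which held for 37 of the 38, with 95 probe sets, among 19775 genes in all. PDIA5, a disulfide isomerase, was not analysed because its probe set names another gene as well.

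The resistant cells were KMS-11/Cfz and KMS-34/Cfz, human multiple myeloma lines that were selected for growth in 12 nM of the proteasome inhibitor carfilzomib and then kept 1 week without it. They were set against the parental lines KMS-11 and KMS-34, which never went through selection. Each of the 4 groups had 3 arrays, each resistant line was a single derivative of its parent, and all 4 groups were grown in the same serum-supplemented medium. Nothing in the sources states whether the 3 replicates were separate cultures, and the p-values reflect nothing beyond the spread among these arrays.

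Plasma cells and myeloma cells secrete large amounts of immunoglobulin, and their ER carries an unusual load of protein to fold. BiP, the product of HSPA5, and its DnaJ cofactors hold unfolded chains, while protein disulfide isomerases and ERO1 oxidases build their disulfide bonds. When unfolded protein builds up, the membrane sensors ATF6, IRE1 (ERN1) and PERK (EIF2AK3) start the unfolded protein response (UPR), which raises transcription of the folding machinery, slows translation and sends chains that cannot fold out to the proteasome. Carfilzomib blocks that last step.

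The deposited values are RMA-normalized log2 signals that are centred for each probe set, so they carry differences between arrays and no level. For the values of single arrays, the mean of the 3 parental arrays of the same line is set to 0. A gene rose or fell, in the words used here, when the adjusted p of limma's moderated test (Benjamini-Hochberg over 19775 genes, two-sided, 12 arrays in 1 fit) was under 0.05. Arrays of 1 group correlated with r of 0.904 to 0.949 in the KMS-11 line over all probe sets. KMS-34/Cfz replicate 1 stood apart, with r of 0.759 and 0.811 to the other arrays of its group. That array had the lowest of the 3 resistant values for 30 of the 37 genes in KMS-34/Cfz. How often this held over all genes was not counted. Over all genes its deviations from the group mean were the widest (standard deviation 0.163, against 0.0666 to 0.121 for the other arrays). Centred values cannot show whether a plasma cell marker was present. Of 8 plasma cell markers, 1 fell in KMS-11/Cfz, against 1.94% of all genes, and 4 fell in KMS-34/Cfz, against 4.69%. The 4 were SLAMF7, PRDM1, IRF4 and NSD2, and none of the 8 rose in either line. SLAMF7, a plasma cell surface receptor, fell in both resistant lines, to -0.91, -0.95 and -1.05 in KMS-11/Cfz and to -1.15, -0.97 and -0.86 in KMS-34/Cfz, with parental arrays between -0.07 and 0.13. CD38, an ectoenzyme of the plasma cell surface, lay above the parental arrays of its line on every resistant array, by 0.44 (KMS-11/Cfz, adjusted p = 0.08) and 0.34 (KMS-34/Cfz, adjusted p = 0.11) on average, and was called higher in the mean of both lines (0.39, adjusted p = 0.016). Of the markers of other cells, CD7 fell in KMS-11/Cfz, and CD14 and HBB fell in KMS-34/Cfz. None of these other markers analysed, which were 8 of 8 for T and NK cells, 4 of 6 for monocytes, 2 of 4 for erythroid cells and 5 of 5 for stroma, rose in either resistant line, and the part of other cells in the results below was not tested.

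In KMS-11/Cfz cells, genes from every class of the list fell and none rose. Against 1.94% of all genes lower and 1.63% higher in this comparison, 14 of the 37 genes fell and 0 rose. Their median log2 fold change was -0.25, against 0.00 over all genes, and 32 of 37 changes lay below 0, against 49% of all genes. All 3 resistant arrays lay below all 3 parental arrays for 27 of the 37 genes (13.7% of all genes) and above them for 2, ATF6 and OS9 (13.1% of all genes). The mean over the 37 genes was -0.21, -0.23 and -0.24 on the 3 KMS-11/Cfz arrays. The list was put together with results of these data already known, so these counts are a description of it. Under cyclic loess scaling, 1.47% of all genes were lower and 2.87% higher, and 14 of the 37 genes fell and 1, ATF6, rose. This scaling follows the mean of each probe set over the arrays, which in centred values does not measure brightness. Its results here and below carry that limit.

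**Figure D1:**
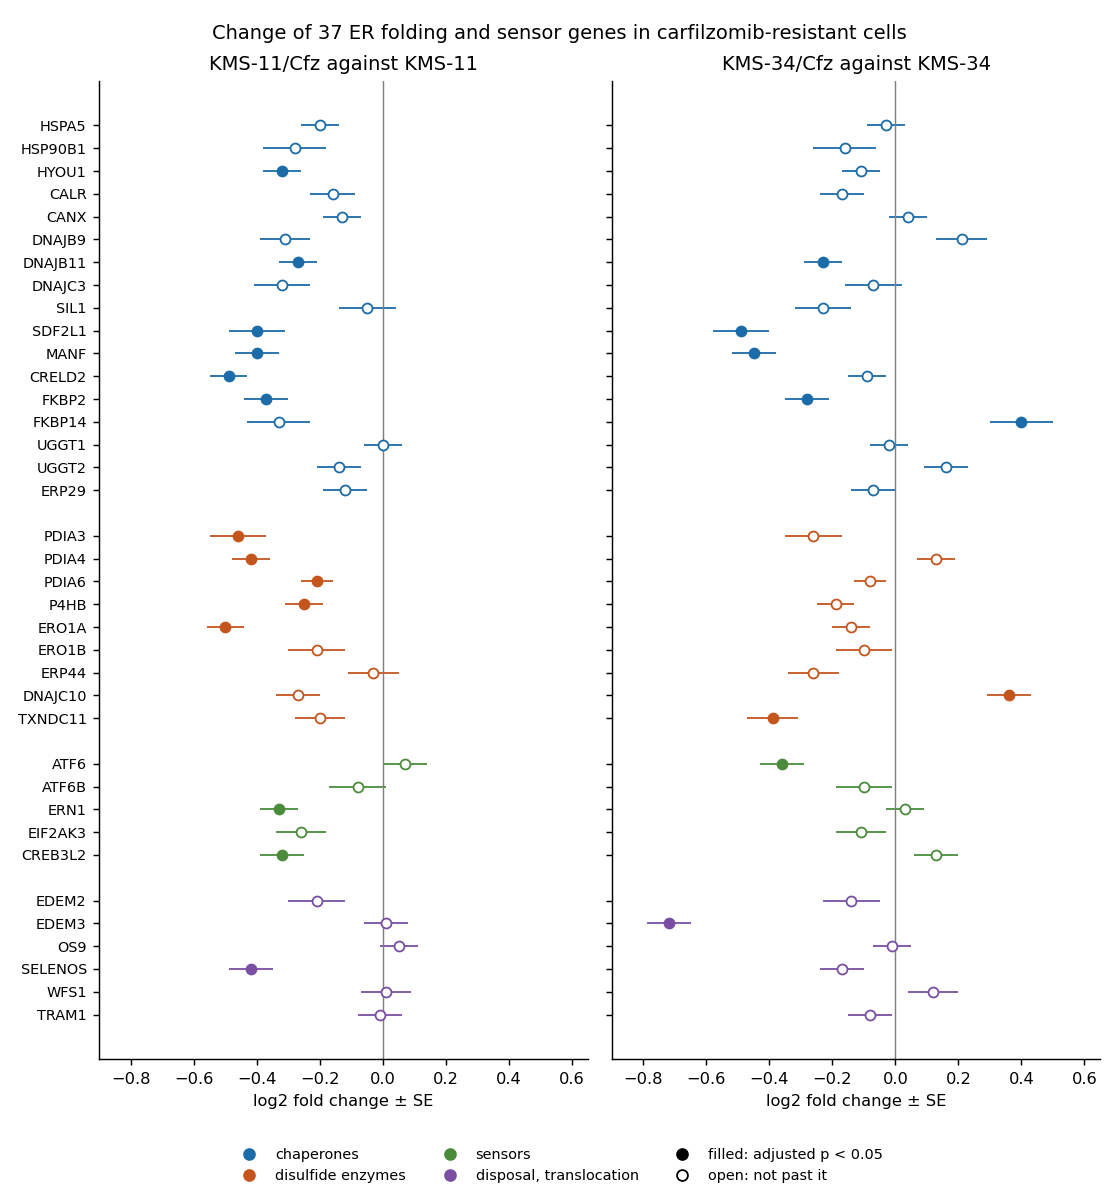
Log2 fold change with its standard error (x axis) of the 37 genes (rows, grouped by role), in KMS-11/Cfz against KMS-11 on the left and in KMS-34/Cfz against KMS-34 on the right. Filled points passed an adjusted p of 0.05: 14 fell and 0 rose on the left, and 7 fell and 2 rose on the right.

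In KMS-34/Cfz cells fewer of the genes fell. Here 7 of the 37 genes fell, against 4.69% of all genes. The 2 that rose were a share close to the 5.4% of all genes that were higher. The median change was -0.10, against -0.01 over all genes, and 28 of 37 changes lay below 0, against 53.6% of all genes. The resistant arrays lay wholly below the parental ones for 12 genes (10.5% of all genes) and wholly above for 2, DNAJC10 and CREB3L2 (10.2% of all genes). The mean over the 37 genes was -0.20 on KMS-34/Cfz replicate 1, -0.08 on replicate 2 and -0.04 on replicate 3, so that the size of the shift in this line differed between its arrays.

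Of the 37 genes, 4 fell in both lines (0.405% of all genes): DNAJB11, SDF2L1, MANF and FKBP2. A further 10 fell in KMS-11/Cfz and were not called in KMS-34/Cfz (1.29% of all genes). Without a call in KMS-11/Cfz, 3 fell (4.12% of all genes) and 2 rose (4.86%) in KMS-34/Cfz, and 18 passed in neither line (87.4%). Averaged over both lines, 14 genes fell and 0 rose, against 3.86% of all genes lower and 3.99% higher. These 14 were HYOU1, DNAJB11, SDF2L1, MANF, CRELD2, FKBP2, PDIA3, PDIA6, P4HB, ERO1A, TXNDC11, ERN1, EDEM3 and SELENOS. Under cyclic loess scaling the mean change turned to 0.07 for TXNDC11 (adjusted p = 0.92) and 0.11 for EDEM3 (adjusted p = 0.9), and ERN1 was not called (-0.13, adjusted p = 0.39). ERN1 also lost this call without _x_at and _s_at probe sets (adjusted p = 0.054), which can bind related transcripts. ERN1 has no probe set of these kinds, so its own values did not change there. It also lost the call under the replicate block (adjusted p = 0.052) and on dropping any single array other than replicate 1 of KMS-34/Cfz (adjusted p = 0.052 to 0.11). PDIA6 lost it on dropping any array of KMS-11/Cfz or KMS-11, replicate 1 of KMS-34 or replicate 2 of KMS-34/Cfz (adjusted p = 0.055 to 0.094). It also lost it on leaving out 3 arrays together (replicate 1 of KMS-34/Cfz, replicate 1 of KMS-34 and replicate 3 of KMS-11, chosen after seeing the data, adjusted p = 0.069). PDIA3 lost it when the probe set of largest variance stood for the gene (-0.17, adjusted p = 0.38).

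The classes can be set side by side. In KMS-11/Cfz the median change was -0.28 over 17 chaperones, of which 6 fell, -0.25 over 9 disulfide enzymes, of which 5 fell, and -0.26 over 5 sensors, of which 2 fell. The 6 genes of disposal and translocation split evenly around 0, with 3 changes below it and 3 above, and 1 fell. In KMS-34/Cfz the medians were -0.09 for the chaperones (4 fell and 1 rose), -0.14 for the disulfide enzymes (1 fell and 1 rose), -0.10 for the sensors (1 fell) and -0.11 for disposal and translocation (1 fell). Over all genes, 1.94% were lower in KMS-11/Cfz, and 4.69% were lower and 5.4% higher in KMS-34/Cfz. A count of 1 in so small a class says little beside these shares. No difference between the classes was tested.

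**Figure D2:**
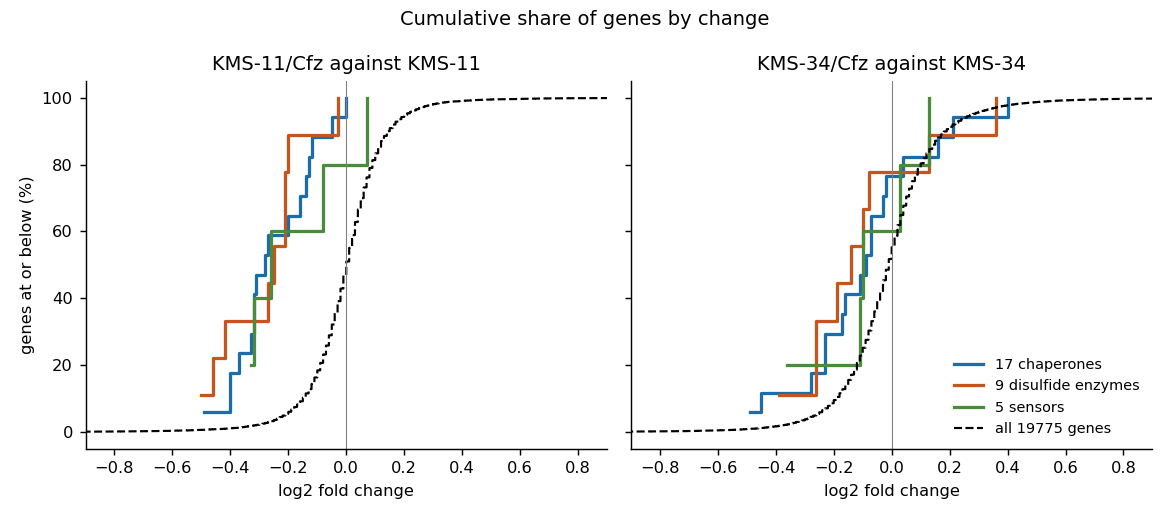
Cumulative share of genes (y axis, in percent) at or below a given log2 fold change (x axis), for 17 chaperones, 9 disulfide enzymes, 5 sensors and all 19775 genes (dashed), in KMS-11/Cfz against KMS-11 (left) and KMS-34/Cfz against KMS-34 (right). On the left the 3 classes lie to the left of all genes with medians of -0.28, -0.25 and -0.26, and on the right their medians are -0.09, -0.14 and -0.10.

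The UPR factors ATF6 and XBP1 act through short promoter elements, so the promoters of the listed genes were read for them. Windows of 300 bases, 250 before and 50 after the start, came from RefSeq (GRCh38.p14) and covered 35 of the 38 genes, all but FKBP14, PDIA3 and TRAM1. The ER stress response element ERSE, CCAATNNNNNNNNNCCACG on either strand, stood in the windows of 7 of the 35 genes (20%), namely HSPA5, HSP90B1, CALR, CANX, CRELD2, PDIA6 and ERO1B, against 0.0916% of all 27305 genes with a window. ERSE-II, ATTGGNCCACG on either strand, stood in HYOU1 and SDF2L1 (5.71%), against 0.0696% of all genes. The UPR element core TGACGTGG on either strand stood in HYOU1, DNAJC10 and TXNDC11 (8.57%), against 0.927% of all genes. The match in TXNDC11 lay after the start. The elements are those of the UPR and the list holds genes of the UPR, so the higher shares in the list describe it and are no test. A match is a description of letters and not a site in use. The following windows show the element (capitals) of 4 genes that fell in KMS-11/Cfz and, for comparison, of HSPA5, which was not called there. All are given 5' to 3' along the gene, upstream of the start, with 15 bases on each side.
HYOU1, chr11:119057365-119057405, minus strand, ERSE-II: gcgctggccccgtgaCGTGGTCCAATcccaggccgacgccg
HYOU1, chr11:119057259-119057299, minus strand, ERSE-II: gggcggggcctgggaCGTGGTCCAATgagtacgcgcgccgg
SDF2L1, chr22:21642099-21642139, plus strand, ERSE-II: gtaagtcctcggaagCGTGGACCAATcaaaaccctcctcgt
CRELD2, chr22:49918539-49918587, plus strand, ERSE: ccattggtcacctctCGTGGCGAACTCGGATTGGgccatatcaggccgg
PDIA6, chr2:10812838-10812886, minus strand, ERSE: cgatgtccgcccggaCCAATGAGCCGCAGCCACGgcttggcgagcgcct
HSPA5, chr9:125241376-125241424, minus strand, ERSE: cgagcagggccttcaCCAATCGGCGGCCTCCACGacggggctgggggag
In HYOU1, SDF2L1 and CRELD2 the element runs on the strand opposite to the gene, and the first of the HYOU1 elements overlaps the UPR element core there. Of the 9 genes with ERSE or ERSE-II, 4 fell in KMS-11/Cfz (1.94% of all genes) and 1 fell in KMS-34/Cfz (4.69% of all genes). Of the 25 analysed genes whose windows held neither, 9 fell in KMS-11/Cfz, and 6 fell and 1 rose in KMS-34/Cfz. No difference between genes with and without the element was tested.

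Among the chaperones, 4 fell in both lines, each of them measured by 1 probe set. MANF, a small secreted protein that also binds BiP, stood at -0.32, -0.43 and -0.43 in KMS-11/Cfz, against 0.07, -0.07 and 0.00 in KMS-11. In the other line it stood at -0.55, -0.46 and -0.35 in KMS-34/Cfz, against 0.01, 0.01 and -0.03 in KMS-34. Every resistant array lay below every parental array of its line. The log2 fold change reached -0.40 for KMS-11/Cfz, 1.32-fold lower (standard error 0.07, adjusted p = 0.0046), while KMS-34/Cfz showed -0.45 (0.07, adjusted p = 8e-04), 1.37-fold lower.

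SDF2L1, which works with the BiP cofactor ERdj3, stood at -0.35, -0.43 and -0.42 in KMS-11/Cfz, against -0.04, 0.02 and 0.02 in KMS-11. It stood at -0.69, -0.49 and -0.28 in KMS-34/Cfz, against -0.08, -0.04 and 0.12 in KMS-34. The groups did not overlap in either line, and the 3 KMS-34/Cfz arrays were spread more widely than the 3 KMS-11/Cfz arrays. KMS-11/Cfz gave -0.40 (standard error 0.09, adjusted p = 0.027) and KMS-34/Cfz -0.49 (0.09, adjusted p = 0.0039). The call in KMS-11/Cfz ended on leaving out any single array of KMS-11/Cfz or KMS-11 (adjusted p = 0.074 to 0.11), and that in KMS-34/Cfz held under every array left out.

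FKBP2, a prolyl isomerase of the ER, stood at -0.33, -0.37 and -0.40 in KMS-11/Cfz, against -0.01, 0.02 and -0.01 in KMS-11. It stood at -0.40, -0.27 and -0.17 in KMS-34/Cfz, against -0.02, 0.07 and -0.05 in KMS-34. All resistant values were below all parental ones. KMS-11/Cfz gave -0.37 (standard error 0.07, adjusted p = 0.008) while KMS-34/Cfz gave -0.28 (0.07, adjusted p = 0.017). Its call in KMS-34/Cfz ended when either replicate 2 of KMS-34/Cfz (adjusted p = 0.052) or replicate 2 of KMS-34 (adjusted p = 0.062) was dropped, when its line was fitted alone (adjusted p = 0.14) and on leaving out 3 arrays together (adjusted p = 0.065).

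DNAJB11, which encodes ERdj3, stood at -0.22, -0.28 and -0.29 in KMS-11/Cfz, against 0.01, 0.01 and -0.02 in KMS-11. It stood at -0.33, -0.19 and -0.16 in KMS-34/Cfz, against -0.02, 0.05 and -0.03 in KMS-34. The groups were again apart in both lines, and the changes were smaller than those of the other 3 genes. KMS-11/Cfz gave -0.27 (standard error 0.06, adjusted p = 0.028) and KMS-34/Cfz -0.23 (0.06, adjusted p = 0.028). Both calls were near the threshold: that in KMS-11/Cfz ended without any single array of KMS-11/Cfz or KMS-11 (adjusted p = 0.075 to 0.13), and that in KMS-34/Cfz on dropping its own replicate 1 or 2 or any KMS-34 array (adjusted p = 0.05 to 0.084). With the probe set of largest variance for every gene, neither call was made (adjusted p = 0.076 for KMS-11/Cfz, 0.07 for KMS-34/Cfz). DNAJB11 has 1 probe set, so its changes stayed at -0.27 and -0.23 there, and only the test over all genes differed. The call in KMS-34/Cfz also ended with the line fitted alone (adjusted p = 0.21), under quantile normalization (0.069) or cyclic loess (0.077), and on leaving out 3 arrays together (0.089).

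The other chaperones that fell did so in KMS-11/Cfz. CRELD2, an ER protein whose gene responds to ER stress, stood at -0.51, -0.49 and -0.48 in KMS-11/Cfz, against -0.01, 0.03 and -0.02 in KMS-11. Its fall of 1.41-fold was the largest among the chaperones in this line (log2 fold change -0.49, standard error 0.06, adjusted p = 5.5e-04). It stood at -0.21, -0.06 and 0.01 in KMS-34/Cfz, against 0.01, -0.02 and 0.01 in KMS-34. Only replicate 1 was clearly below the parental arrays there, and the change of -0.09 was not called (adjusted p = 0.48).

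HYOU1, the exchange factor and large Hsp70 that serves BiP, stood at -0.31, -0.37 and -0.27 in KMS-11/Cfz, against -0.02, 0.01 and 0.01 in KMS-11. It stood at -0.17, -0.10 and -0.05 in KMS-34/Cfz, against -0.11, 0.02 and 0.09 in KMS-34. The groups were apart in the first line and overlapped in the second. KMS-11/Cfz gave -0.32 (standard error 0.06, adjusted p = 0.015), whereas KMS-34/Cfz gave -0.11 (adjusted p = 0.4). The call ended without KMS-11/Cfz replicate 1 or 2 or any KMS-11 array (adjusted p = 0.054 to 0.084).

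FKBP14 and DNAJB9 had changes of opposite sign in the lines. FKBP14, a prolyl isomerase that acts on collagens, stood at -0.37, -0.33 and -0.30 in KMS-11/Cfz, against 0.04, 0.03 and -0.07 in KMS-11. It stood at 0.17, 0.52 and 0.51 in KMS-34/Cfz, against -0.04, 0.22 and -0.17 in KMS-34. In the first line no array overlapped, and in the second the lowest resistant array lay under the highest parental one. It rose in KMS-34/Cfz by 0.40 (standard error 0.10, adjusted p = 0.026) and was not called in KMS-11/Cfz (-0.33, adjusted p = 0.12). The rise was lost when replicate 2 or 3 of KMS-34/Cfz was dropped, as well as on dropping replicate 1 or 3 of KMS-34 (adjusted p = 0.082 to 0.12), with the line fitted alone (0.13), under cyclic loess (0.21, adjusted p = 0.068) and with the probe set of largest variance (adjusted p = 0.068). The change in KMS-11/Cfz passed with the line fitted alone (adjusted p = 0.0079), with array weights (0.0041), under quantile normalization (0.027) and without KMS-34/Cfz replicate 1 (adjusted p = 0.036).

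DNAJB9, which encodes ERdj4, the cofactor that helps BiP restrain IRE1, stood at -0.35, -0.31 and -0.26 in KMS-11/Cfz, against 0.12, -0.01 and -0.11 in KMS-11. It stood at 0.13, 0.26 and 0.25 in KMS-34/Cfz, against -0.03, 0.16 and -0.12 in KMS-34. Resistant arrays were lower without overlap in the first line and mostly higher, with overlap, in the second. Neither change passed the threshold, as KMS-11/Cfz gave -0.31 (adjusted p = 0.056) while KMS-34/Cfz gave 0.21 (adjusted p = 0.13), although a test of the difference between them did, as given below. The first of these passed when replicate 1 of KMS-34/Cfz was dropped, or when replicate 2 or 3 of KMS-34 was (adjusted p = 0.031 to 0.048). It also passed with the line fitted alone (0.027), quantile normalization (0.043), cyclic loess (0.048), array weights (0.0031) and 3 arrays left out together (0.037). The second passed without KMS-34 replicate 2 (adjusted p = 0.039) and with array weights (adjusted p = 0.032).

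HSPA5, HSP90B1, CALR and CANX were not called, although alternatives called the first 3 in KMS-11/Cfz. HSPA5 encodes BiP, the central Hsp70 of the ER, and stood at -0.14, -0.26 and -0.21 in KMS-11/Cfz, against 0.00, 0.02 and -0.01 in KMS-11, a change of -0.20 (standard error 0.06, adjusted p = 0.08) without overlap. Its change was -0.03 for KMS-34/Cfz (standard error 0.06, adjusted p = 0.84). HSPA5 was called lower in KMS-11/Cfz by a fit of that line alone (adjusted p = 0.046) and by array weights (adjusted p = 0.0098). The Hsp90 paralogue HSP90B1 gave -0.28 in KMS-11/Cfz against its parent while KMS-34/Cfz gave -0.16, and 4 alternatives called it lower in KMS-11/Cfz: the line fitted alone (adjusted p = 0.048), array weights (0.0084), the probe set of largest variance (0.047) and the omission of 3 arrays together (0.016). HSP90B1 was measured here by 2 probe sets, both of the _x_at kind. A further HSP90B1 probe set, not among those used here, is on the paper's list as lower in KMS-11/Cfz. DNAJC3, a cofactor that also restrains PERK, gave -0.32 in KMS-11/Cfz but -0.07 in KMS-34/Cfz. In KMS-11/Cfz, the lectin chaperones CALR and CANX gave -0.16 and -0.13, the glucosyltransferases UGGT1 and UGGT2 gave 0.00 and -0.14, the exchange factor SIL1 gave -0.05 and ERP29, a thioredoxin-fold helper, gave -0.12. In KMS-34/Cfz, CALR gave -0.17, CANX 0.04, UGGT1 -0.02, UGGT2 0.16, SIL1 -0.23 and ERP29 -0.07. None of these was called. CALR passed without _x_at and _s_at probe sets, at -0.34 in both lines (adjusted p = 0.018 for KMS-11/Cfz, 0.0077 for KMS-34/Cfz), and with array weights in KMS-11/Cfz (-0.19, adjusted p = 0.044). DNAJC3 passed in KMS-11/Cfz under 6 alternatives, among them quantile normalization and cyclic loess (adjusted p = 0.0023 to 0.035). Leaving out single KMS-34/Cfz arrays also brought calls for DNAJC3 in KMS-11/Cfz (without replicate 1 or 3, adjusted p = 0.016 and 0.033), for UGGT2 in KMS-34/Cfz (without replicate 1, 0.24, adjusted p = 0.035, and likewise with array weights, 0.26, adjusted p = 0.016) and for SIL1 there (without replicate 3, -0.32, adjusted p = 0.033).

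**Figure D3:**
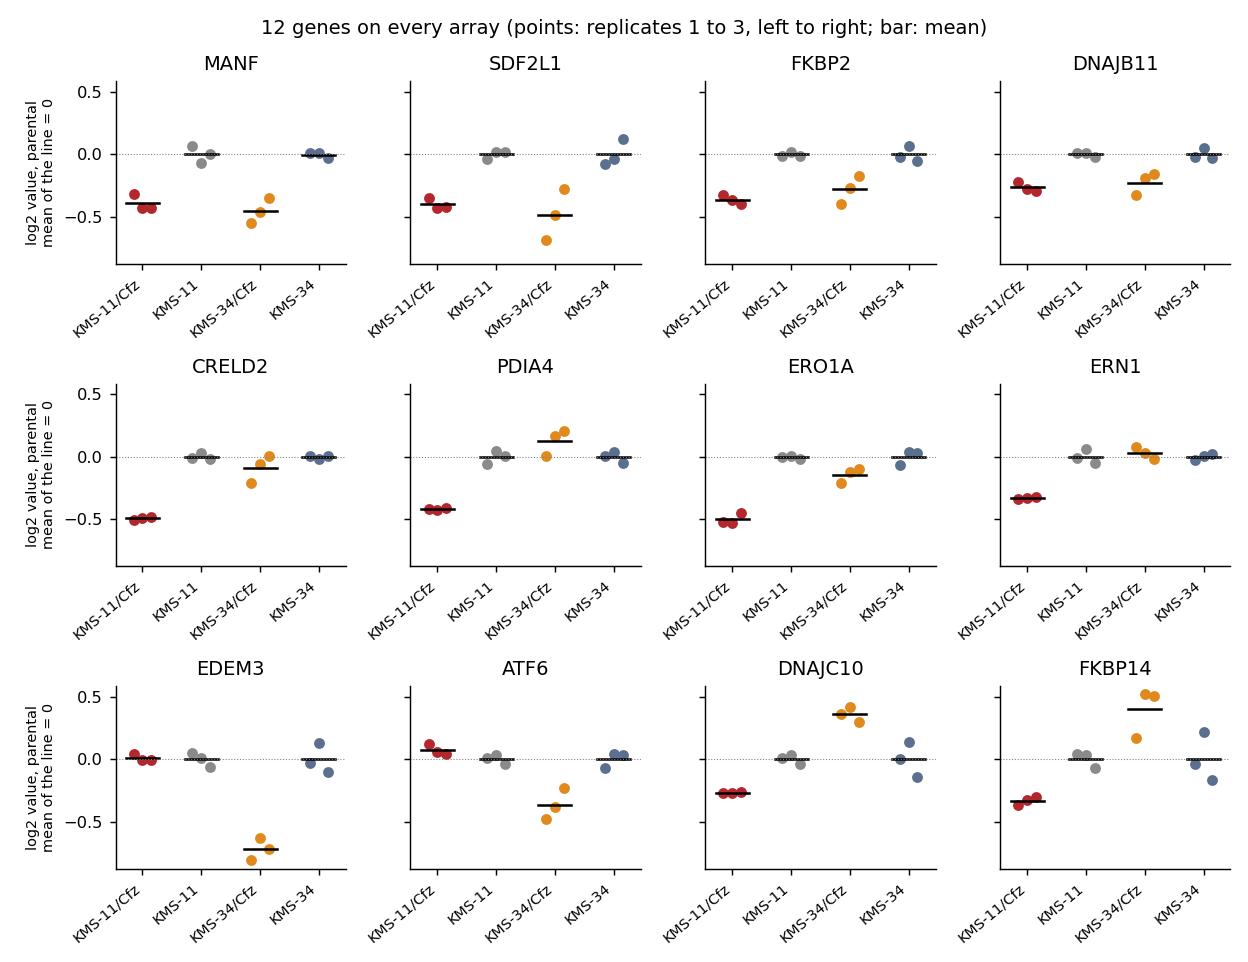
Log2 value on every array (y axis, with the mean of the 3 parental arrays of each line at 0) for 12 genes, 1 per panel, in the 4 groups (x axis), with points for replicates 1 to 3 from left to right and a bar for the mean. In the upper row resistant arrays lie below parental ones in both lines, in the middle row the larger drop is in KMS-11/Cfz, and in the lower row the larger change is in KMS-34/Cfz.

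Of the 9 disulfide enzymes, 5 fell in KMS-11/Cfz: ERO1A, PDIA4, PDIA3, P4HB and PDIA6. ERO1A, the oxidase that recharges protein disulfide isomerase, stood at -0.52, -0.53 and -0.45 in KMS-11/Cfz, against 0.00, 0.01 and -0.02 in KMS-11. It stood at -0.21, -0.12 and -0.10 in KMS-34/Cfz, against -0.07, 0.04 and 0.03 in KMS-34. Resistant arrays lay below parental ones in both lines. Its fall of 0.50 on the log2 scale (standard error 0.06, adjusted p = 3.2e-04), 1.41-fold, was the largest among the 37 genes in KMS-11/Cfz, and its change of -0.14 in KMS-34/Cfz was not called (adjusted p = 0.16). All 3 of its probe sets fell in KMS-11/Cfz, by 0.44 to 0.57.

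PDIA4, an isomerase with several thioredoxin-like domains, stood at -0.42, -0.43 and -0.41 in KMS-11/Cfz, against -0.06, 0.05 and 0.01 in KMS-11. It stood at 0.01, 0.17 and 0.21 in KMS-34/Cfz, against 0.01, 0.04 and -0.05 in KMS-34. The first line showed a clear gap, and in the second 2 of the 3 resistant arrays were above the parental ones. KMS-11/Cfz gave -0.42 (standard error 0.06, adjusted p = 0.0022) and KMS-34/Cfz 0.13 (0.06, adjusted p = 0.26). The change in KMS-34/Cfz passed, at 0.19, without its replicate 1 (adjusted p = 0.047).

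PDIA3, which works with the lectin chaperones on glycoproteins, stood at -0.48, -0.35 and -0.56 in KMS-11/Cfz, against 0.05, 0.01 and -0.06 in KMS-11. It stood at -0.41, -0.26 and -0.10 in KMS-34/Cfz, against -0.13, 0.12 and 0.01 in KMS-34. The groups were apart in the first line, and a single resistant array overlapped in the second. It fell in KMS-11/Cfz by 0.46 (standard error 0.09, adjusted p = 0.011), and in KMS-34/Cfz its change was -0.26 (adjusted p = 0.092). The fall in KMS-11/Cfz was not called when replicate 1 or 3 of KMS-11/Cfz or replicate 1 of KMS-11 was dropped (adjusted p = 0.054 to 0.065). Cyclic loess scaling brought it to -0.21 (adjusted p = 0.13), and with the probe set of largest variance it was -0.36 (adjusted p = 0.22), neither of them called. The change in KMS-34/Cfz was called without its replicate 3 (-0.34, adjusted p = 0.035) and under cyclic loess (-0.24, adjusted p = 0.041).

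P4HB, the classical protein disulfide isomerase, stood at -0.22, -0.25 and -0.28 in KMS-11/Cfz, against -0.05, 0.03 and 0.02 in KMS-11. It stood at -0.26, -0.18 and -0.12 in KMS-34/Cfz, against -0.04, 0.04 and 0.00 in KMS-34. The arrays were apart in both lines. The change of -0.25 in KMS-11/Cfz was called (standard error 0.06, adjusted p = 0.033) and that of -0.19 in KMS-34/Cfz was not (adjusted p = 0.062). The call in KMS-11/Cfz ended without any single array of KMS-11/Cfz or KMS-11, or without KMS-34/Cfz replicate 2 (adjusted p = 0.052 to 0.15), with the probe set of largest variance (adjusted p = 0.083) and without _x_at and _s_at probe sets (adjusted p = 0.12). The change in KMS-34/Cfz passed under quantile normalization (adjusted p = 0.039) and cyclic loess (0.025), and without KMS-34/Cfz replicate 3 (-0.22, adjusted p = 0.047).

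PDIA6, an isomerase that also tempers IRE1, stood at -0.19, -0.20 and -0.25 in KMS-11/Cfz, against -0.01, 0.02 and -0.01 in KMS-11. It stood at -0.12, -0.07 and -0.05 in KMS-34/Cfz, against 0.00, 0.00 and 0.00 in KMS-34. Both lines showed no overlap, with small gaps. The change of -0.21 in KMS-11/Cfz was the weakest call of the list (standard error 0.05, adjusted p = 0.045), and that of -0.08 in KMS-34/Cfz was not called (adjusted p = 0.44). The call ended without any array of KMS-11/Cfz or KMS-11, and on dropping replicate 2 of KMS-34/Cfz or replicate 1 or 3 of KMS-34 (adjusted p = 0.053 to 0.21). It also ended under the replicate block (adjusted p = 0.065), with array medians aligned (0.057), with the probe set of largest variance (0.087) and on leaving out 3 arrays together (0.059).

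In KMS-34/Cfz, DNAJC10 and TXNDC11 changed in opposite directions. DNAJC10, which encodes ERdj5, a reductase that opens disulfides before disposal, stood at 0.36, 0.42 and 0.30 in KMS-34/Cfz, against 0.00, 0.14 and -0.14 in KMS-34. It stood at -0.27, -0.27 and -0.26 in KMS-11/Cfz, against 0.01, 0.03 and -0.04 in KMS-11. The arrays were apart in both lines, upwards in KMS-34/Cfz and downwards in KMS-11/Cfz. It rose in KMS-34/Cfz by 0.36 (standard error 0.07, adjusted p = 0.0049), and in KMS-11/Cfz its change of -0.27 missed the threshold (adjusted p = 0.057), which it passed when replicate 1 of KMS-34/Cfz was dropped, or when replicate 2 or 3 of KMS-34 was (adjusted p = 0.031 to 0.043). Of its 5 probe sets, 4 rose in KMS-34/Cfz by 0.41 to 0.58, and the fifth gave -0.11 (adjusted p = 0.59). With each line fitted alone the rise was not called (adjusted p = 0.065) and the change in KMS-11/Cfz was (adjusted p = 0.012). The latter also passed under quantile normalization (adjusted p = 0.049), cyclic loess (0.045), array weights (0.004) and the replicate block (0.044).

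TXNDC11, a thioredoxin-domain protein of the ER, stood at -0.50, -0.38 and -0.30 in KMS-34/Cfz, against -0.08, 0.04 and 0.04 in KMS-34. It stood at -0.08, -0.26 and -0.26 in KMS-11/Cfz, against -0.10, 0.08 and 0.02 in KMS-11. The groups were apart in the KMS-34 line and overlapped in the KMS-11 line. It fell in KMS-34/Cfz by 0.39 (standard error 0.08, adjusted p = 0.0052), and its change of -0.20 in KMS-11/Cfz was not called (adjusted p = 0.23). The call in KMS-34/Cfz ended under cyclic loess scaling (-0.46, adjusted p = 0.41). The remaining disulfide enzymes were not called in either line: ERO1B, the second oxidase, gave -0.21 (KMS-11/Cfz) and -0.10 (KMS-34/Cfz), and ERP44, which retains ERO1 in the ER, gave -0.03 (KMS-11/Cfz) and -0.26 (KMS-34/Cfz). ERP44 passed in KMS-34/Cfz without its replicate 3 (-0.34, adjusted p = 0.021) and under cyclic loess (-0.29, adjusted p = 0.016). It also passed there without _x_at and _s_at probe sets (-0.31, adjusted p = 0.048). ERO1B passed in KMS-11/Cfz with array weights (-0.21, adjusted p = 0.046).

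Of the 5 sensors, ERN1 and CREB3L2 fell in KMS-11/Cfz and ATF6 fell in KMS-34/Cfz. ERN1, which encodes the kinase and RNase IRE1, stood at -0.34, -0.33 and -0.32 in KMS-11/Cfz, against -0.01, 0.06 and -0.05 in KMS-11. It stood at 0.08, 0.03 and -0.02 in KMS-34/Cfz, against -0.03, 0.01 and 0.02 in KMS-34. The first line showed a clear gap and the second none. It fell in KMS-11/Cfz by 0.33 (standard error 0.06, adjusted p = 0.0049), and its change of 0.03 in KMS-34/Cfz was not called (adjusted p = 0.84). Its probe sets disagreed in KMS-11/Cfz, where 2 gave -0.51 (adjusted p = 0.0023) and -0.50 (adjusted p = 0.0026) and the third gave 0.02 (adjusted p = 0.99). Under cyclic loess scaling the change was -0.13 and not called (adjusted p = 0.67).

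ATF6, the sensor that is cut in the Golgi to release a transcription factor, stood at -0.48, -0.38 and -0.23 in KMS-34/Cfz, against -0.07, 0.04 and 0.03 in KMS-34. It stood at 0.12, 0.06 and 0.04 in KMS-11/Cfz, against 0.01, 0.03 and -0.04 in KMS-11. The arrays were apart in both lines, downwards in KMS-34/Cfz and by a narrow margin upwards in KMS-11/Cfz. It fell in KMS-34/Cfz by 0.36 (standard error 0.07, adjusted p = 0.0042) and gave 0.07 in KMS-11/Cfz (adjusted p = 0.8). All 4 of its probe sets lay below 0 in KMS-34/Cfz, from -0.54 to -0.21, and 3 of them fell. The gene was not called with the line fitted alone (adjusted p = 0.058).

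The other sensors gave smaller or single-line changes. EIF2AK3, which encodes PERK, stood at -0.26, -0.30 and -0.22 in KMS-11/Cfz, against 0.01, -0.15 and 0.13 in KMS-11. It stood at -0.02, -0.20 and -0.12 in KMS-34/Cfz, against 0.06, 0.02 and -0.09 in KMS-34. The arrays were apart in the first line and overlapped in the second. Its changes of -0.26 for KMS-11/Cfz (adjusted p = 0.097) and -0.11 for KMS-34/Cfz (adjusted p = 0.47) were not called, yet 1 of its 2 probe sets fell in KMS-11/Cfz by 0.47 (adjusted p = 0.0073 over all probe sets), and the other gave -0.05 (adjusted p = 0.97). In KMS-11/Cfz the gene passed with array weights (-0.24, adjusted p = 0.021) and with the probe set of largest variance (-0.47, adjusted p = 0.0057).

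CREB3L2, a membrane-bound relative of ATF6, stood at -0.36, -0.27 and -0.33 in KMS-11/Cfz, against -0.12, 0.04 and 0.09 in KMS-11. It stood at 0.16, 0.17 and 0.06 in KMS-34/Cfz, against -0.02, 0.03 and -0.01 in KMS-34. No arrays overlapped, downwards in the first line and upwards in the second. It fell in KMS-11/Cfz by 0.32 (standard error 0.07, adjusted p = 0.017), and its change of 0.13 in KMS-34/Cfz was not called (adjusted p = 0.31). The call ended when replicate 1 or 3 of KMS-11/Cfz or replicate 2 or 3 of KMS-11 was dropped (adjusted p = 0.077 to 0.092), with the probe set of largest variance or without _x_at and _s_at probe sets (adjusted p = 0.12 each), and on leaving out 3 arrays together (0.053). Under cyclic loess scaling its direction turned (0.10, adjusted p = 0.88).

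ATF6B, the less active relative of ATF6, stood at -0.15, 0.01 and -0.12 in KMS-11/Cfz, against 0.00, -0.04 and 0.04 in KMS-11. It stood at -0.29, -0.04 and 0.04 in KMS-34/Cfz, against -0.16, 0.07 and 0.10 in KMS-34. The groups overlapped in both lines. Neither change was called: KMS-11/Cfz gave -0.08 (adjusted p = 0.83), while KMS-34/Cfz gave -0.10 (adjusted p = 0.64).

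Among the disposal genes, EDEM3 gave the largest difference of the list between resistant and parental cells. EDEM3, a mannosidase that marks misfolded glycoproteins, stood at -0.81, -0.63 and -0.72 in KMS-34/Cfz, against -0.03, 0.13 and -0.10 in KMS-34. It stood at 0.04, -0.01 and -0.01 in KMS-11/Cfz, against 0.05, 0.01 and -0.06 in KMS-11. The gap was wide in the KMS-34 line and absent in the KMS-11 line. It fell in KMS-34/Cfz by 0.72 on the log2 scale (standard error 0.07, adjusted p = 3.4e-05), 1.65-fold, and gave 0.01 in KMS-11/Cfz (adjusted p = 0.99). All 3 of its probe sets fell in KMS-34/Cfz, by 0.63 to 0.79, and cyclic loess scaling ended the call of the gene (-0.85, adjusted p = 0.24).

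SELENOS, a selenoprotein of the complex that draws misfolded chains out of the ER, stood at -0.35, -0.44 and -0.46 in KMS-11/Cfz, against 0.04, 0.03 and -0.06 in KMS-11. It stood at -0.31, -0.18 and -0.03 in KMS-34/Cfz, against -0.06, 0.02 and 0.05 in KMS-34. The first line was free of overlap, and the second was not. It fell in KMS-11/Cfz by 0.42 (standard error 0.07, adjusted p = 0.0064), and its change of -0.17 in KMS-34/Cfz was not called (adjusted p = 0.19). In KMS-11/Cfz, the mannosidase EDEM2 gave -0.21, the lectin OS9 0.05, wolframin (WFS1) 0.01 and the translocon protein TRAM1 -0.01. In KMS-34/Cfz they gave -0.14 for EDEM2, -0.01 for OS9, 0.12 for WFS1 and -0.08 for TRAM1, and none was called.

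Whether the lines differed in their response was tested with the interaction, the change in KMS-34 minus the change in KMS-11. It was more positive for 8 of the 37 genes (3.7% of all genes) and more negative for 2 (2.74% of all genes). Under cyclic loess scaling these became 6 genes more positive (2.89% of all genes) and 1 more negative (4.98%). The largest positive differences were those of FKBP14 (0.73, standard error 0.15, adjusted p = 0.0096), DNAJC10 (0.63, 0.10, adjusted p = 0.002), PDIA4 (0.55, 0.09, adjusted p = 0.0026) and DNAJB9 (0.52, 0.11, adjusted p = 0.016). CREB3L2 (0.45, 0.09, adjusted p = 0.013), CRELD2 (0.40, 0.09, adjusted p = 0.016), ERN1 (0.36, 0.08, adjusted p = 0.016) and ERO1A (0.35, 0.08, adjusted p = 0.023) completed the 8. The negative differences were those of EDEM3 (-0.73, 0.10, adjusted p = 8.3e-04) and ATF6 (-0.43, 0.10, adjusted p = 0.018).

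Of the 4 genes that fell in both lines, none was called in the interaction, with differences of 0.04 for DNAJB11, -0.08 for SDF2L1, -0.05 for MANF and 0.09 for FKBP2 and standard errors of 0.09 to 0.13. The difference for ERO1A was lost on dropping replicate 1 or 2 of KMS-11/Cfz, replicate 1 or 2 of KMS-11, replicate 2 of KMS-34/Cfz or replicate 1 of KMS-34 (adjusted p = 0.056 to 0.069). That for ERN1 was lost without KMS-11 replicate 2 (adjusted p = 0.053), and that for ATF6 without KMS-11/Cfz replicate 1 (adjusted p = 0.056). The differences for ERN1 and CREB3L2 vanished under cyclic loess scaling, at -0.01 and -0.02 (adjusted p = 0.99 each), and that for EDEM3 grew to -1.93 and was not called (adjusted p = 0.059). ERN1 was not called under quantile normalization either (0.26, adjusted p = 0.2). With the probe set of largest variance, DNAJB9 (0.65, adjusted p = 0.074), ATF6 (-0.62, adjusted p = 0.061) and CREB3L2 (0.55, adjusted p = 0.13) were not called. Without _x_at and _s_at probe sets, ERO1A (0.27, adjusted p = 0.2) and CREB3L2 (0.40, adjusted p = 0.09) were not.

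**Figure D4:**
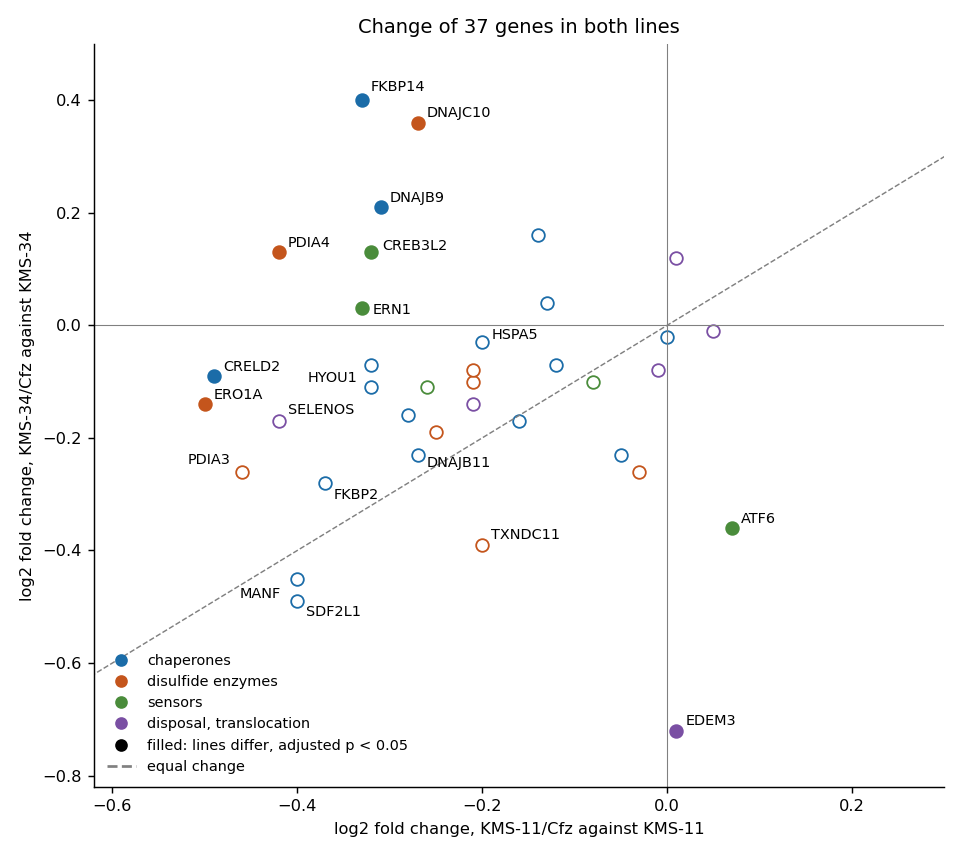
Log2 fold change in KMS-34/Cfz against KMS-34 (y axis) and in KMS-11/Cfz against KMS-11 (x axis) of the 37 genes, coloured by role, with equal change on the dashed line. The 10 filled genes differed between the lines in the interaction, 8 of them above the dashed line and 2, EDEM3 and ATF6, below it.

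Genes that lie beside each other on a chromosome can change together. The 10 analysed genes on each side of ATF6 in the order of the RefSeq assembly held 6 that fell in KMS-34/Cfz, against 4.69% of all genes, with a median of -0.02. Those around EDEM3 held 2 that fell and 2 that rose, with a median of -0.10. The neighbours of DNAJB9 held 8 genes that rose in KMS-34/Cfz, with a median of 0.24, and those of FKBP14 held 6, with a median of 0.14, against 5.4% of all genes. Around DNAJC10 2 neighbours rose, and around SDF2L1 none was called in KMS-34/Cfz. Of the other genes called in the interaction, CREB3L2 had 4 neighbours that rose there, with a median of 0.10. PDIA4 had 2 that rose, and CRELD2, ERN1 and ERO1A had 1 each. Of genes not called in KMS-34/Cfz or the interaction, ERO1B had 5 neighbours that fell and EDEM2 had 4 that rose. The part of neighbouring genes in these changes was not tested.

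The single probe sets were also tested on their own. Of the 95 probe sets, 18 fell and 0 rose in KMS-11/Cfz, against 1.02% of all 54613 probe sets lower and 0.729% higher, and 79 lay below 0. In KMS-34/Cfz 13 fell and 8 rose, against 3.18% lower and 3.87% higher, and 66 lay below 0. Probe sets of a gene split in some cases beyond ERN1, EIF2AK3 and DNAJC10. For CALR, 1 probe set fell by 0.34 in both lines (adjusted p = 0.041 for KMS-11/Cfz, 0.016 for KMS-34/Cfz), while the other 2 probe sets were not called. For UGGT2, 2 of the 7 probe sets rose in KMS-34/Cfz, by 0.61 (adjusted p = 0.0095) and 0.66 (adjusted p = 0.0046), while another gave -0.37 (adjusted p = 0.056) and the other 4 lay between -0.02 and 0.12. The probe set of largest variance alone thus gave UGGT2 a call at 0.66 (adjusted p = 0.0039), against 0.16 for the mean over its probe sets. For CANX, 1 probe set rose by 0.39 in KMS-34/Cfz (adjusted p = 0.0096), and its other 4 probe sets lay between -0.10 and 0.02. With the probe set of largest variance CANX was called there (0.39, adjusted p = 0.0087). For PDIA3, 1 probe set fell in both lines, by 0.66 (KMS-11/Cfz) and 0.57 (KMS-34/Cfz).

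Before selection, the 2 lines already differed widely in these genes. In KMS-34 against KMS-11, 16 of the 37 were higher and 12 lower, against 21.6% of all genes higher and 20.5% lower. With the mean of the KMS-11 arrays at 0, TXNDC11 stood at 1.91, 2.03 and 2.03 in KMS-34, against -0.10, 0.08 and 0.02 in KMS-11, a 3.96-fold higher level (log2 fold change 1.99, standard error 0.08, adjusted p = 7.9e-11). ERO1B stood at -1.93, -1.92 and -2.02 in KMS-34, against -0.06, 0.11 and -0.05 in KMS-11, which is 3.88-fold lower (-1.96, 0.09, adjusted p = 5.6e-10). The 2 disulfide enzymes thus marked opposite ends of the list.

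EDEM3 stood at -1.55, -1.38 and -1.61 in KMS-34, against 0.05, 0.01 and -0.06 in KMS-11 (-1.51, standard error 0.07, adjusted p = 6.4e-10), a difference that was -0.65 and not called under cyclic loess scaling (adjusted p = 0.24). CRELD2 stood at -1.20, -1.24 and -1.21 in KMS-34, against -0.01, 0.03 and -0.02 in KMS-11 (-1.22, 0.06, adjusted p = 1.5e-09). HSPA5 stood at -1.02, -0.91 and -0.97 in KMS-34, against 0.00, 0.02 and -0.01 in KMS-11 (-0.97, 0.06, adjusted p = 7.4e-09). In each of these genes the 6 parental arrays fell into separate sets by line. Among the sensors, ERN1 was 2.16-fold higher in KMS-34 than in KMS-11 (1.11, adjusted p = 1.3e-09), and ATF6 was 1.75-fold lower (-0.81, adjusted p = 2.9e-07). The parental arrays also enter the resistant comparisons, so the differences between the parental lines and the changes within the lines are not independent of each other.

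**Figure D5:**
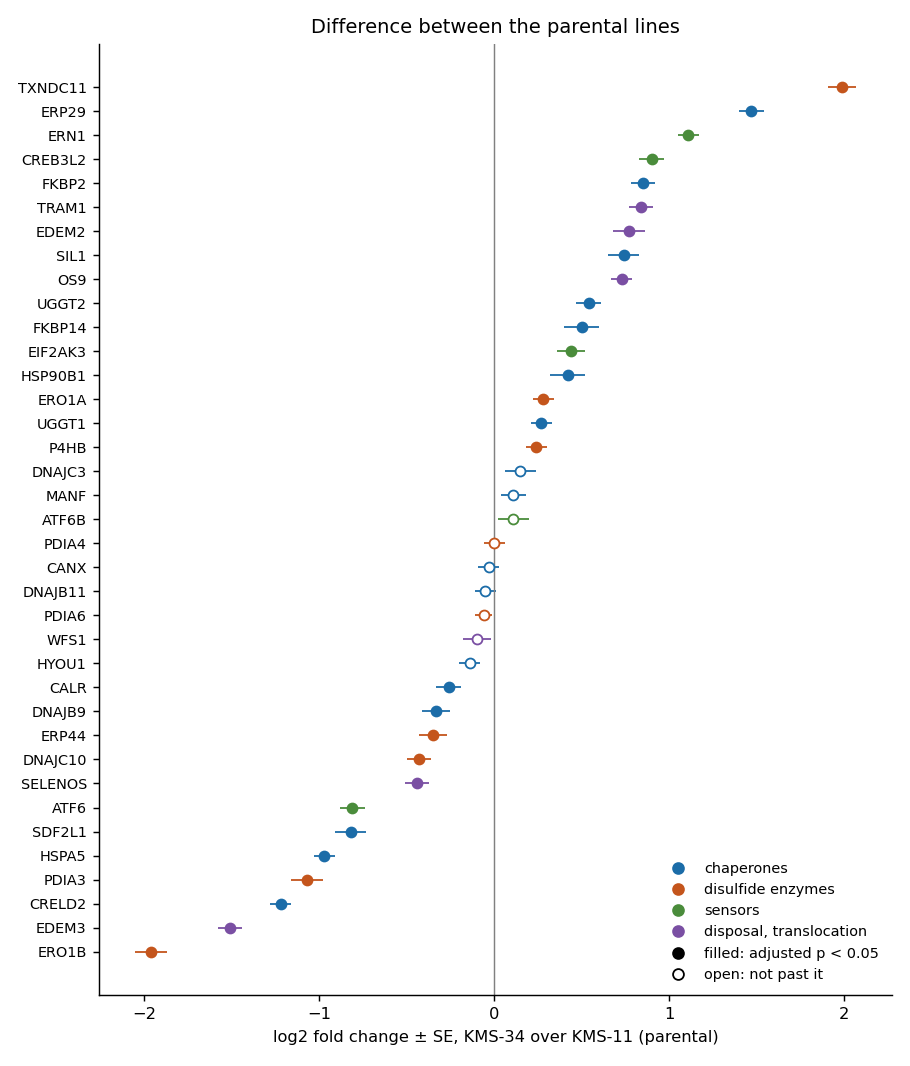
Log2 fold change with its standard error (x axis) of KMS-34 over KMS-11, both parental, for the 37 genes (rows, ordered by size and coloured by role). Filled points passed an adjusted p of 0.05: 16 genes were higher in KMS-34 and 12 lower, from TXNDC11 at 1.99 to ERO1B at -1.96.

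Other genes of the response, taken from a list of 43 of which 38 were analysed, were counted in the same way. In KMS-11/Cfz 13 fell (1.94% of all genes) and 0 rose (1.63%), with a median of -0.14. In KMS-34/Cfz 6 fell (4.69% of all genes) and 3 rose (5.4%), with a median of -0.03. In KMS-11/Cfz, 8 of 13 analysed genes of translocation and disposal and 4 of 10 further folding genes fell, as did 1 of 15 signalling genes, and no difference between these groups was tested. FKBP11, a prolyl isomerase of secretory cells, stood at -0.77, -0.75 and -0.82 in KMS-11/Cfz, against 0.04, -0.02 and -0.02 in KMS-11 (-0.78, standard error 0.06, adjusted p = 7.7e-06). SEL1L, the adaptor of the HRD1 disposal ligase, fell by 0.46 (adjusted p = 0.0015), the Hsp70 relative HSPA13 by 0.41 (adjusted p = 0.015) and the prolyl isomerase PPIB by 0.41 (adjusted p = 9.3e-04) in KMS-11/Cfz.

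In KMS-34/Cfz the largest of these changes was that of TRIB3, a pseudokinase induced by PERK signalling, at 0.29, 0.44 and 0.56, against -0.14, 0.05 and 0.09 in KMS-34 (0.43, standard error 0.08, adjusted p = 0.0039). MYDGF fell by 0.40 (adjusted p = 5.6e-04) and VKORC1, an oxidoreductase of the vitamin K cycle, by 0.36 (adjusted p = 0.0026), and NUCB2 rose by 0.34 (adjusted p = 0.0092). Among the transcription factors, BHLHA15 (MIST1), which serves the secretory program of plasma and exocrine cells, fell in KMS-11/Cfz. It stood at -0.40, -0.43 and -0.35 in KMS-11/Cfz, against 0.00, -0.02 and 0.02 in KMS-11 (-0.39, standard error 0.07, adjusted p = 0.0068), and its change of 0.03 in KMS-34/Cfz was not called (adjusted p = 0.91). XBP1, ATF4 and DDIT3 were not called in either line. XBP1, whose RNA is spliced by IRE1, gave -0.04 (KMS-11/Cfz) and 0.03 (KMS-34/Cfz). ATF4 gave -0.12 (KMS-11/Cfz) and 0.06 (KMS-34/Cfz), and DDIT3 gave -0.04 (KMS-11/Cfz) and 0.15 (KMS-34/Cfz). The arrays do not separate spliced from unspliced XBP1 in these values.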

How the data were processed

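RNA of the 4 groups, with 3 arrays each, was measured on 1-colour Affymetrix arrays. RMA (version not stated) was the normalization the authors used, and the deposited values are log2 signals centred for each probe set, from -7.75 to 8.64, in which 99.99% of 54613 probe sets have 3 to 9 of the 12 values below 0. Levels, dim probe sets and background therefore could not be examined, and the number of arrays limits the precision. Of the probe sets, 41091 name 1 gene, 1801 several and 11721 none. Probe sets that name 1 gene alone were averaged per gene, with current symbols from RefSeq, and 4 that name a listed gene with another were left out. Group means were fitted with limma 3.58.1 (R 4.3.3) over all 12 arrays and tested by contrasts, after a check on simulated data. Every listed gene is named. Those called in either line, in the interaction or in the mean of both lines, and the sensors ATF6, ATF6B, ERN1 and EIF2AK3, are given with every array, and of the further response genes up to 4 per line with the largest called changes. Alternatives were each line alone, the replicate block, other scalings, array weights, other choices of probe set and the omission of arrays. The gene lists were chosen with earlier results of these data known. Figures were drawn with Python 3.11.15 and matplotlib 3.10.9.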

Additional observations from a re-analysis of the deposited data

Results flagged for a closer look

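For 10 genes, the interaction test found that the resistant change in KMS-34 differed from that in KMS-11. The difference in log2 change was 0.73 for FKBP14, 0.63 for DNAJC10, 0.55 for PDIA4, 0.52 for DNAJB9, 0.45 for CREB3L2, 0.40 for CRELD2, 0.36 for ERN1 and 0.35 for ERO1A. It was -0.73 for EDEM3 and -0.43 for ATF6. Of these 10, 7 were still called under every omission of a single array: DNAJB9, CRELD2, FKBP14, PDIA4, DNAJC10, CREB3L2 and EDEM3.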

How the results depend on the processing

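Under the alternatives, the direction of a called gene in either line or in the interaction stayed the same in all cases but 3: under cyclic loess scaling CREB3L2 in KMS-11/Cfz gave 0.10, and the interaction gave -0.01 for ERN1 and -0.02 for CREB3L2. In the mean of both lines TXNDC11 and EDEM3 turned to 0.07 and 0.11 under the same scaling, and between the parental lines ERO1A, at 0.28, turned to -0.04 (adjusted p = 0.75) without _x_at and _s_at probe sets. The same genes kept their call in 587 of these single-gene values and lost it in 93. Cyclic loess was run along the mean over all arrays, and after centring that mean no longer measures brightness. It gave 568 genes higher and 291 lower in KMS-11/Cfz, against 322 and 384 as deposited, and 572 more positive and 985 more negative in the interaction, against 732 and 542. It brought 1 rise in KMS-11/Cfz (2.87% of all genes) and left 1 in KMS-34/Cfz (4.91%). In the interaction it left 1 gene more negative (4.98% of all genes), as did the largest-variance probe set (1, against 2.62%). With each line fitted alone, 20 genes fell in KMS-11/Cfz (3.67% of all genes). KMS-34/Cfz then had 0 rises (2.2%) and 4 falls (1.61%), those of MANF, SDF2L1, TXNDC11 and EDEM3. Array weights, estimated gene by gene after the default estimate had not converged, gave 23 falls in KMS-11/Cfz (5.52% of all genes). They gave 4 rises in KMS-34/Cfz (8.75%) and 22 falls in the mean of both lines (6.23%). Without single arrays, 7 to 18 genes fell in KMS-11/Cfz (0.946% to 2.91% of all genes). KMS-34/Cfz had 1 to 4 rises (3.42% to 8.62%) and 5 to 11 falls (3.34% to 5.08%). In the interaction 1 to 2 were more negative (1.65% to 3.49%). Of the calls, 7 of 14 in KMS-11/Cfz (MANF, CRELD2, FKBP2, PDIA4, ERO1A, ERN1 and SELENOS) and 6 of 9 in KMS-34/Cfz (SDF2L1, MANF, DNAJC10, TXNDC11, ATF6 and EDEM3) held under every such omission. Under all alternatives run, MANF, CRELD2, FKBP2, PDIA4, ERO1A and SELENOS kept their call in KMS-11/Cfz, and SDF2L1 and MANF in KMS-34/Cfz. Of these, MANF, CRELD2, FKBP2, SELENOS and SDF2L1 have 1 probe set each. The alternatives that chose among probe sets could not move their values and are no check on them. The deviations of KMS-34/Cfz replicate 1 from its group mean correlated over genes with those of KMS-34 replicate 1 (r = 0.561) and KMS-11 replicate 3 (r = 0.494). Leaving out these 3 arrays together, chosen after seeing the data, gave 15 falls in KMS-11/Cfz (2.33% of all genes). In KMS-34/Cfz it gave 5 falls (4.64%) and 2 rises (6.11%). Deviations of arrays with the same replicate number correlated, for replicates 1 to 3, at -0.00914, 0.129 and 0.0389 in the KMS-11 line. In the KMS-34 line they correlated at 0.561, 0.374 and 0.0462. The parental array of the same number was the best partner for replicates 2 and 3 of KMS-11/Cfz and 1 and 2 of KMS-34/Cfz. These values do not settle whether the numbers pair the samples. With the replicate block, the counts were 0 rises (1.68% of all genes) and 14 falls (1.96%) in KMS-11/Cfz. In KMS-34/Cfz they were 2 rises (5.6%) and 7 falls (4.99%). In KMS-11/Cfz PDIA6 was then not called (adjusted p = 0.065), and DNAJC10 was called (-0.27, adjusted p = 0.044). What changed these calls was not tested.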
